A study of Mus musculus with 16 samples.

Results

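The effect of Bin1 loss in skeletal muscle was described across all expressed genes by comparing the 4 Bin1 knockout mice given saline (KO_PBS) with the 4 wild-type mice given saline (WT_PBS). These 8 samples, taken by their genotype and treatment labels, are part of a series of 16. All mice were males of 7 weeks, labelled C57BL/6N, and poly(A) RNA of the tibialis anterior, which lifts the foot, was sequenced with a stranded kit. The WT_PBS mice carried the genotype WT and the KO_PBS mice the genotype Bin1mck-/-, and both groups received PBS. The other 8 mice, 4 of each genotype (KO_ASO and WT_ASO), received the antisense oligonucleotide ASO1 directed against Dnm2. The driver that deletes Bin1, the cells it acts in, the exons removed and the dose were not given in the sources used here, and nothing in them says whether replicates came from separate litters or days.

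Bin1 encodes amphiphysin 2, a BAR-domain protein that bends membranes and takes part in forming the T-tubules, the inward folds of the muscle fibre membrane that meet the sarcoplasmic reticulum at the triad. Recessive BIN1 mutations cause centronuclear myopathy, a muscle disease with weak, small fibres and nuclei placed in the fibre centre. Dnm2 encodes dynamin 2, a GTPase that cuts membranes, and it is mutated in a dominant form of the same disease.

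Bin1 (chromosome 18, 32377230 to 32435737 in GRCm38) was measured at 475, 554, 487 and 463 CPM (a gene's reads as a rate of its library's total, TMM-corrected for composition) in the 4 WT_PBS mice and at 47.7, 40.8, 43.7 and 47.4 CPM in the 4 KO_PBS mice. Every knockout sample therefore lay far under every wild-type sample, with 9.08% of the wild-type mean remaining (log2FC -3.46 ± 0.12 SE, edgeR adjusted P = 1.91e-11). An exact two-sided permutation test gave P = 0.0286, the smallest that 4 against 4 allows. Dnm2 was measured at 50.2 to 62.8 CPM in WT_PBS and 59.1 to 67.7 CPM in KO_PBS, and the groups overlapped (log2FC 0.16 ± 0.11 SE, edgeR adjusted P = 0.377).

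Of the 29730 genes in the count table, 14960 passed the filter on low counts and were tested. With a Benjamini-Hochberg adjusted P under 0.05 as the threshold for differentially expressed genes (DEGs), 1878 genes, 12.6% of those tested, were called between KO_PBS and WT_PBS. Of these, 1112 (7.43% of those tested) were higher and 766 (5.12%) were lower in the knockout. When libraries were scaled by their totals alone, 88.2% of the calls were higher in place of 59.2%, and the median log2FC over all genes was 0.139 in place of -0.0108. Calls that held in all 8 fits that each left out 1 saline mouse numbered 868 (5.8%), with 582 higher (3.89%) and 286 lower (1.91%), and such calls are said below to hold in every fit.

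Higher and lower genes differed in size and in level. The higher DEGs had a median log2FC of 0.98 (quartiles 0.6 and 1.65) and the lower ones of -0.45 (quartiles -0.64 and -0.34). Changes of at least 2-fold were called for 620 genes (4.14%), with 542 higher genes (3.62% of those tested) and 78 lower genes (0.521%), and at least 8-fold changes made up 63 higher and 5 lower genes. Among genes under 1 CPM on average, 87.8% of calls were higher, against 78.9% from 1 to 10 CPM, 48.1% from 10 to 100 CPM and 30.5% from 100 to 1000 CPM. Of the 86 genes at 1000 CPM or more, 26 were called, of which 7 were higher and 19 lower. Of the lower calls, 434 lay from 10 to 100 CPM. The size of the calls also differed by level, with a median absolute log2FC of 1.84 under 1 CPM and 1.0 from 1 to 10 CPM. It was 0.47 from 10 to 100 CPM and 0.48 from 100 to 1000 CPM. The share called was 13.4% for protein-coding genes, 13.2% for lincRNAs and 2.14% for processed pseudogenes, and lay between 9.83% and 14.2% on the autosomes and chromosome X.

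**Figure D1:**
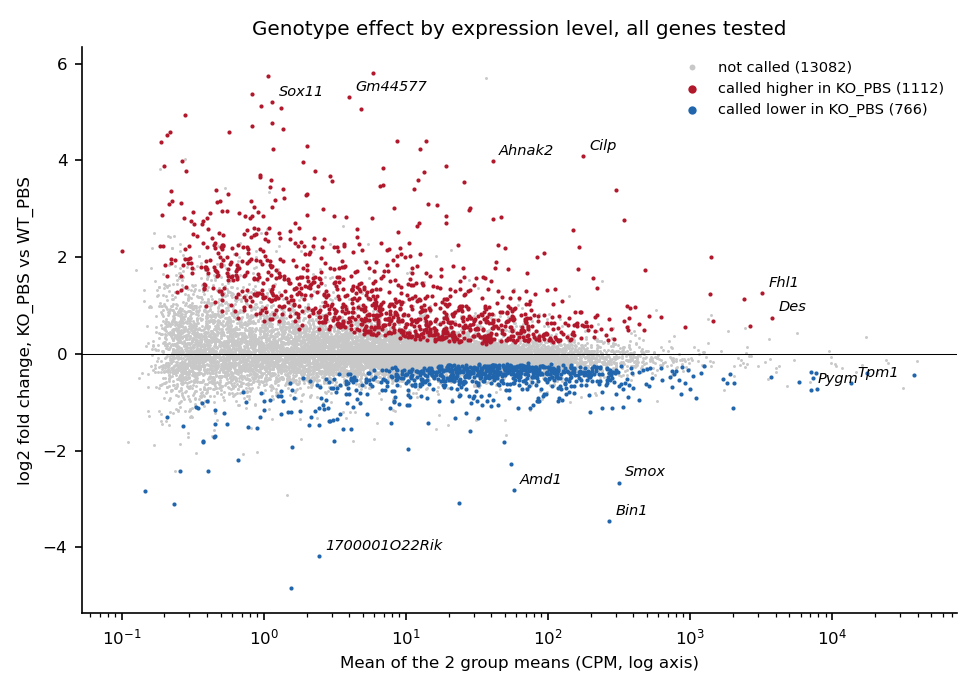
Each point is 1 of the 14960 genes tested, with the mean of the group means in CPM on a log axis against the log2 fold change of KO_PBS over WT_PBS, and with called genes in red (1112 higher) or blue (766 lower). Red points spread upwards at low levels, while from 100 CPM up blue points outnumber red ones.

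The 8 libraries held 28672069 to 40862854 counts, and within a group their log2 CPM correlated at 0.979 to 0.988 (Pearson, across genes). KO_PBS mouse 1 lay farthest from the wild type for 53.7% of the higher and 59.7% of the lower DEGs, and KO_PBS mouse 4 for 31.3% and 16.2%. The groups did not overlap in CPM for 3051 genes (20.4% of those tested). Without KO_PBS mouse 1 the calls fell to 997 and without WT_PBS mouse 4 to 1080.

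Close to Bin1 itself, 4 of 79 genes within 5 Mb (5.06%) were called, against 36 of 337 (10.7%) on the rest of chromosome 18. The nearest was Gm44577, an lncRNA gene that starts 26.8 kb beyond the end of Bin1 (chromosome 18, 32462579 to 32509064). It was measured at 0.117 to 0.298 CPM in WT_PBS and at 6.95 to 8.71 CPM in KO_PBS, the smallest adjusted P of any higher gene (log2FC 5.30 ± 0.21 SE, edgeR adjusted P = 8.81e-11).

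The gene lists described next cover 78 pathways, structures and cell types, and each is read against the 12.6% of all genes called and the median log2FC of -0.0108 over all genes. The lists with the largest shares of higher DEGs were those of macrophages, the acetylcholine receptor, membrane repair, denervation and intermediate filaments. The lists with the largest shares of lower DEGs were those of satellite cells, glycolysis and glycogen, and fast contractile proteins.

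**Figure D2:**
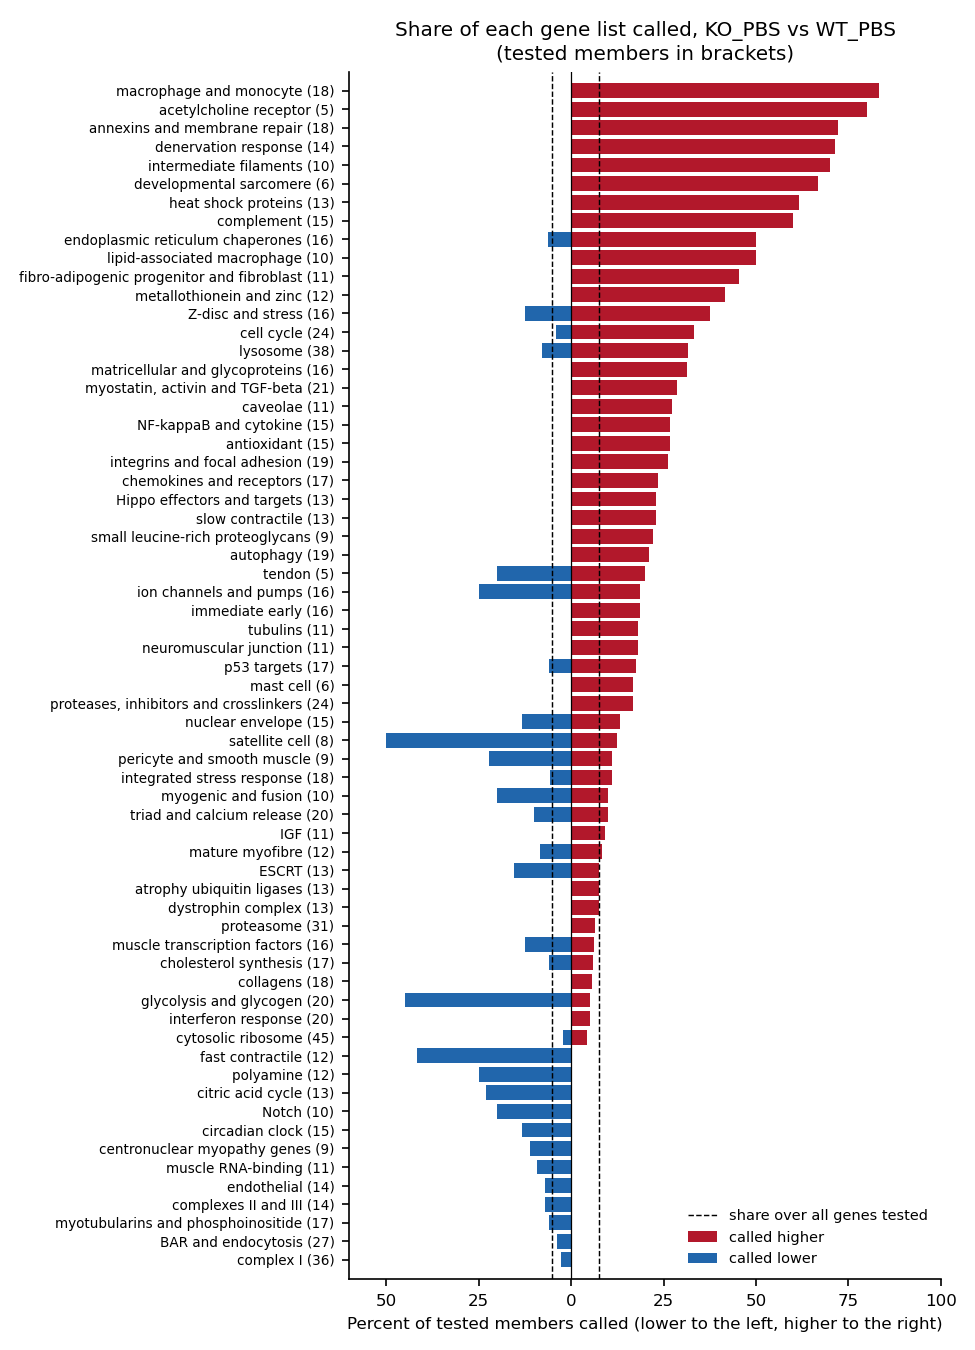
Bars give the percent of each list's tested members (number in brackets) called higher (red, to the right) or lower (blue, to the left) in KO_PBS, for the 64 of 78 lists with at least 5 tested members and at least 1 call. Dashed lines mark the shares over all genes tested, 7.43% higher and 5.12% lower, and 15 of 18 macrophage genes and 9 of 20 glycolysis and glycogen genes lie beyond them.

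The Z-disc is the plate that anchors actin filaments, and intermediate filaments surround it. Of 16 Z-disc and stress genes, 6 were called higher and 2 lower, with 3 higher in every fit. Flnc, the actin crosslinker filamin C, was measured at 1420, 1670, 1610 and 1290 CPM in WT_PBS and at 4220, 2840, 2540 and 3540 CPM in KO_PBS. The lowest knockout value thus exceeded the highest wild-type value (log2FC 1.13 ± 0.19 SE, edgeR adjusted P = 0.00097). Xirp1, the actin-binding protein Xin, rose from 188 to 262 CPM in WT_PBS to 548 to 924 CPM in KO_PBS (log2FC 1.73 ± 0.24 SE, edgeR adjusted P = 0.000313), but it overlaps Cx3cr1, the gene of a macrophage receptor, on the same strand. Fhl1 (chromosome X, 56731787 to 56793346), a LIM-domain protein of the sarcomere, had the largest gain in CPM of all genes that qualified for naming: it was measured at 1860, 1440, 2240 and 2110 CPM in WT_PBS and at 6250, 4450, 3860 and 3630 CPM in KO_PBS (log2FC 1.25 ± 0.27 SE, edgeR adjusted P = 0.00697). KO_PBS mouse 1 was the highest of the 4 knockout mice for Flnc, Xirp1 and Fhl1.

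Of 10 intermediate filament genes, 7 were called higher and none lower, and 5 of the 7 were called in every fit. Des, which encodes desmin, the muscle intermediate filament, was measured at 3060, 2870, 3040 and 2390 CPM in WT_PBS and at 5270, 4890, 4540 and 4380 CPM in KO_PBS (log2FC 0.75 ± 0.10 SE, edgeR adjusted P = 0.000118). Lmna, the lamin A/C of the nuclear envelope, rose from 56.3 ± 12.6 to 140 ± 13.9 CPM (SD, n = 4 each; log2FC 1.32 ± 0.16 SE, edgeR adjusted P = 8.27e-05). Krt8, a keratin of epithelial cells, had 0 to 5 counts in the WT_PBS libraries and 38 to 97 in the KO_PBS libraries, a ratio of 37.1 (95% exact interval 17.8 to 93.0, counting error only). Of 11 tubulin genes, Tubb6 and Tubb4b were called higher, and 10 had a positive log2FC. Tubb6, a beta-tubulin, was measured at 9.13 to 11.8 CPM in WT_PBS and 67.2 to 82.9 CPM in KO_PBS, so that the groups lay far apart (log2FC 2.79 ± 0.24 SE, edgeR adjusted P = 6.32e-06). Among 15 nuclear envelope genes, 2 were called higher and 2 lower. Syne2, a nesprin that ties the nucleus to the cytoskeleton, was lower (log2FC -0.44 ± 0.09 SE, edgeR adjusted P = 0.00408), and Akap6, which organises the muscle nuclear envelope, was higher (log2FC 0.50 ± 0.12 SE, edgeR adjusted P = 0.0128).

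**Figure D3:**
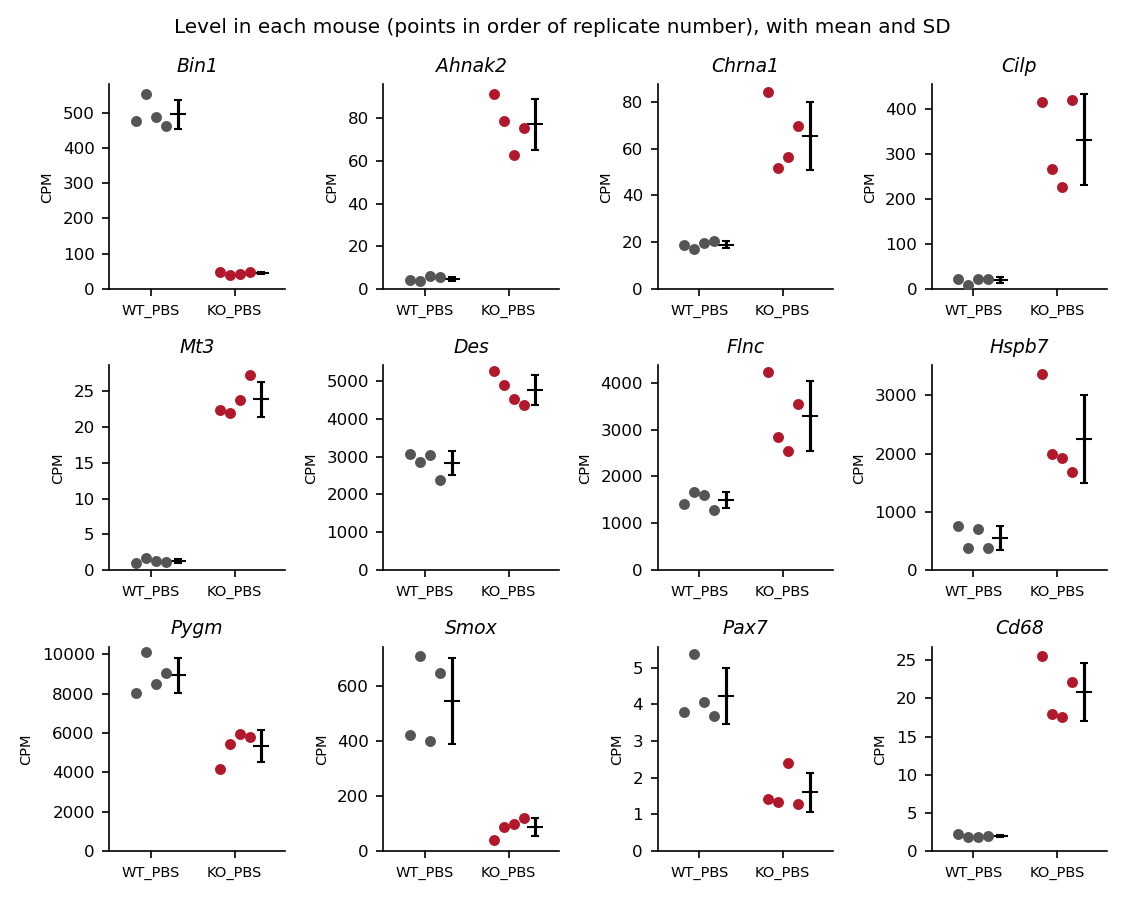
Level in CPM of 12 genes in each of the 4 WT_PBS mice (grey) and 4 KO_PBS mice (red), in order of replicate number, with the mean and SD beside them and each axis starting at 0. In all 12 panels the 4 KO_PBS mice lie entirely above or entirely below the 4 WT_PBS mice. Genes were named in part for such a lack of overlap, which held for 20.4% of all genes tested.

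Heat shock proteins are chaperones that keep other proteins folded, and their genes were mostly higher. All 13 tested members had a positive log2FC (median 0.68), 8 were called higher and none lower, and 4 were called in every fit. Their summed level was 3390 to 4150 CPM in the WT_PBS mice and 6130 to 8330 CPM in the KO_PBS mice. The small heat shock proteins of muscle led the list. Hspb7 was measured at 763, 387, 705 and 370 CPM in WT_PBS and at 3360, 2000, 1930 and 1690 CPM in KO_PBS (log2FC 2.01 ± 0.34 SE, edgeR adjusted P = 0.00137). Cryab, which binds desmin and filamin and is named here for its large difference in CPM, rose from 824 ± 193 to 1930 ± 346 CPM (SD, n = 4 each; log2FC 1.23 ± 0.23 SE, edgeR adjusted P = 0.00256). Hspb1 (log2FC 1.51 ± 0.19 SE), Hspb6 (0.68 ± 0.14 SE) and Hspb8 (0.79 ± 0.16 SE), of the same family, were also called in every fit. Within this family KO_PBS mouse 1 had the highest value for Hspb7, Cryab, Hspb6 and Hspb1, and mouse 4 for Hspb8.

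Annexins and membrane repair proteins seal tears in the fibre membrane. All 18 genes had a positive log2FC (median 0.69), 13 were called higher, and 12 of these were called in every fit. Ahnak2 (chromosome 12, 112772194 to 112802657), a giant scaffold protein, was measured at 4.33, 3.65, 5.91 and 5.47 CPM in WT_PBS and at 91.4, 78.9, 62.8 and 75.3 CPM in KO_PBS (log2FC 3.98 ± 0.22 SE, edgeR adjusted P = 1.92e-08). Anxa4, a calcium-dependent phospholipid-binding annexin, was measured at 12.3 to 13.6 CPM in WT_PBS and 33.2 to 45.8 CPM in KO_PBS (log2FC 1.58 ± 0.10 SE, edgeR adjusted P = 1.03e-07). Anxa8 rose from 0.579 ± 0.126 to 4.62 ± 1.68 CPM (SD, n = 4 each; log2FC 3.0 ± 0.32 SE, edgeR adjusted P = 2.31e-05). Dysf, the repair protein dysferlin, also counted among the triad genes, rose less, from 111 ± 11.9 to 167 ± 7.72 CPM (log2FC 0.59 ± 0.10 SE, edgeR adjusted P = 0.00127). Cpne2, a copine that like the annexins binds membranes with calcium, was among the 12 leading higher genes (log2FC 2.70 ± 0.24 SE, edgeR adjusted P = 6.32e-06).

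Caveolae, the small membrane pits from which T-tubules are thought to arise, gave 3 higher calls in 11 genes, all 3 in every fit. Cav3, the muscle caveolin, was measured at 58.6, 59.6, 59.1 and 48.6 CPM in WT_PBS and at 126, 89.1, 81.8 and 78.8 CPM in KO_PBS (log2FC 0.74 ± 0.16 SE, edgeR adjusted P = 0.00757). Cavin4, which works with Cav3, rose from between 127 and 181 CPM to between 239 and 312 CPM (log2FC 0.77 ± 0.14 SE), and Ehd4, a membrane-shaping ATPase, from between 66.6 and 79.6 CPM to between 118 and 192 CPM (log2FC 1.03 ± 0.18 SE). By contrast, Bin1's own functional families gave few calls. Of 27 genes of BAR-domain and endocytic proteins, Amph alone was called, lower at log2FC -0.95 ± 0.25 SE (edgeR adjusted P = 0.0225), and it lost the call without KO_PBS mouse 1, 2 or 4 or WT_PBS mouse 1. Amph encodes amphiphysin 1, the neuronal relative of Bin1, and was scarce here, at 1.35 to 1.64 CPM in WT_PBS and 0.468 to 1.1 CPM in KO_PBS. Of 17 myotubularin and phosphoinositide genes, the phosphatase gene Mtmr3 was called lower (log2FC -0.42 ± 0.09 SE, edgeR adjusted P = 0.00566) and the others were not called. Of 9 centronuclear myopathy genes tested, Bin1 itself was the sole call. These shares, 1 of 27, 1 of 17 and 1 of 9, lie below or near the 12.6% of all genes. Scaling by library totals alone gave 4, 1 and 2 calls in these lists, against 2202 over all 14960 genes tested.

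At the triad, where calcium release is triggered, 2 of 20 genes were called higher and 2 lower, and the median log2FC was -0.17. The higher ones were Dysf and Cav3. Jph1, the junctophilin that holds T-tubule and reticulum together, was measured at 332, 508, 340 and 371 CPM in WT_PBS and at 182, 263, 244 and 290 CPM in KO_PBS, without overlap (log2FC -0.67 ± 0.15 SE, edgeR adjusted P = 0.0082). Of 16 ion channel and pump genes, 3 were called higher and 4 lower, with 2 higher and 0 lower in every fit, and with 2 higher and 0 lower calls without KO_PBS mouse 1. Kcnn3, a calcium-activated potassium channel that marks denervated fibres, rose from between 3.43 and 6.55 CPM to between 17.0 and 28.5 CPM (log2FC 2.06 ± 0.20 SE, edgeR adjusted P = 1.15e-05). The dystrophin complex gave 1 call in 13 genes, the sarcoglycan gene Sgcd (log2FC 0.56 ± 0.11 SE, edgeR adjusted P = 0.00447), and 4 calls with scaling by library totals alone. Integrins and focal adhesion proteins, which tie the fibre to its surroundings, gave 5 higher calls in 19 genes and none lower. Itga7, the laminin receptor subunit of muscle, rose from 121 ± 11.1 to 221 ± 51.0 CPM (SD, n = 4 each; log2FC 0.87 ± 0.14 SE, edgeR adjusted P = 0.000924), and its partner Itgb1 from 227 ± 14.3 to 326 ± 40.9 CPM (log2FC 0.52 ± 0.09 SE, edgeR adjusted P = 0.00127).

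The acetylcholine receptor, a pentamer that receives the motor nerve's signal, gave 4 higher calls in 5 subunit genes. Chrna1 was measured at 18.8, 16.9, 19.5 and 20.7 CPM in WT_PBS and at 84.0, 51.5, 56.5 and 69.5 CPM in KO_PBS (log2FC 1.78 ± 0.22 SE, edgeR adjusted P = 8.27e-05). Chrnd rose from 3.26 ± 1.20 to 20.6 ± 10.4 CPM (log2FC 2.65 ± 0.39 SE, edgeR adjusted P = 0.000463) and Chrnb1 from 41.3 ± 2.75 to 70.7 ± 7.45 CPM (log2FC 0.78 ± 0.12 SE, edgeR adjusted P = 0.000416). Of 14 genes of the denervation response, 10 were called higher, 9 of them in every fit, and none lower (median log2FC 1.44). They included Ncam1, a cell adhesion molecule spread over denervated fibres, at 6.82 to 8.63 CPM in WT_PBS and 32.2 to 46.0 CPM in KO_PBS (log2FC 2.26 ± 0.15 SE, edgeR adjusted P = 1.03e-07). They also included Runx1, a transcription factor, at 1.74 to 3.09 CPM and 8.19 to 14.4 CPM (log2FC 2.30 ± 0.25 SE, edgeR adjusted P = 2.59e-05). Myog, the myogenic factor myogenin that acts on the receptor genes, was measured at 3.22, 4.25, 3.22 and 2.51 CPM in WT_PBS and at 28.9, 22, 21.1 and 13.4 CPM in KO_PBS (log2FC 2.70 ± 0.32 SE, edgeR adjusted P = 6.89e-05). The Schwann cell list, the cells that sheathe the nerve, gave 0 calls in 12 genes by edgeR, with summed levels of 69.8 to 100 CPM in WT_PBS and 73.8 to 117 CPM in KO_PBS. Of 11 other genes of the neuromuscular junction, 2 were called, 1 of them in every fit, among them Colq, the collagen that anchors acetylcholinesterase (log2FC 1.02 ± 0.21 SE, edgeR adjusted P = 0.00465).

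The RefSeq promoter windows (GRCm38.p6, 300 bases each, 5′ to 3′ on the gene's strand) of Chrna1 at chr2:73580289-73580588 on the minus strand and of Myog at chr1:134289754-134290053 on the plus strand are shown because both genes rose and myogenin binds E-boxes. Capitals mark CAGCTG, a form of the E-box that reads the same on both strands. Other forms of the E-box were not searched or marked.
Chrna1: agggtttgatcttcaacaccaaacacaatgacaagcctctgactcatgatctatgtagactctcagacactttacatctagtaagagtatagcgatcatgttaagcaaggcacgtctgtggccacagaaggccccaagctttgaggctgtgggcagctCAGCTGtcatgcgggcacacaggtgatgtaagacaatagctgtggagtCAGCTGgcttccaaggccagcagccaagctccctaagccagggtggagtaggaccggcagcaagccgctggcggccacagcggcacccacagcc
Myog: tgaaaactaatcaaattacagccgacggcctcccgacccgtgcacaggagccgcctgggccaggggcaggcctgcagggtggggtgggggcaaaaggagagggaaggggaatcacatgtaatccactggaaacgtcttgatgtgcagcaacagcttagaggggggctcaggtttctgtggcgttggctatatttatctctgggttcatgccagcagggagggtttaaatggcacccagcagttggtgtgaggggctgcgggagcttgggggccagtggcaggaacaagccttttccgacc
The Chrna1 window held 2 matches to CAGCTG and the Myog window 0, and other forms of the E-box in these windows were not counted. Of the 4 windows of receptor genes, 3 held a match (Chrna1, Chrne and Chrng), against 16.3% of all 32851 windows, and Chrne was not called. Of the 17 windows of denervation response genes, 3 held a match (17.6%). For the MEF2-type motif (CTA and TAG with 4 free bases between them), searched on both strands, 6 of 16 windows of Z-disc and stress genes held a match (37.5%, in Flnc, Ldb3, Synpo2, Synpo2l and Xirp2), against 3.69% of all windows. Of these genes Flnc and Xirp2 were called higher, Synpo2 was called lower, and Ldb3 and Synpo2l were not called. None of the 7 windows of developmental sarcomere genes held one.

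Of 13 slow-fibre genes, 3 were called higher, each in every fit, and none lower (median log2FC 1.18). They were Sln, Tnni1 and Atp2a2, while the slow myosin genes Myh7, Myl2 and Myl3 and the slow troponin genes Tnnt1 and Tnnc1 were not called. Sln, the calcium pump inhibitor sarcolipin, was measured at 0.994, 0.670, 0.986 and 0.501 CPM in WT_PBS and at 31.3, 14.5, 5.83 and 14.7 CPM in KO_PBS (log2FC 4.39 ± 0.50 SE, edgeR adjusted P = 5.67e-05). Tnni1, slow troponin I, rose from between 1.30 and 3.76 CPM to between 12.2 and 45.3 CPM (log2FC 3.10 ± 0.59 SE, edgeR adjusted P = 0.00414), and Atp2a2, the slow-fibre calcium pump, from 42.3 ± 1.28 to 71.7 ± 5.99 CPM (log2FC 0.76 ± 0.17 SE, edgeR adjusted P = 0.00924). Of 6 developmental sarcomere genes, 4 were higher in every fit, among them Myl4, an embryonic myosin light chain (log2FC 1.44 ± 0.26 SE), Tnnt2, cardiac troponin T (1.71 ± 0.35 SE), and Myh8, the perinatal myosin heavy chain (0.97 ± 0.21 SE). The embryonic myosin heavy chain Myh3 (log2FC 0.29, edgeR adjusted P = 0.518) and the more abundant Actc1 (log2FC -0.08, edgeR adjusted P = 0.943) were not called. Of 12 fast-fibre genes, 5 were called lower and none higher (median log2FC -0.41), but none of the 5 kept the call without KO_PBS mouse 1. Tnnt3, fast troponin T, was measured at 18300 to 21300 CPM in WT_PBS and 14100 to 16000 CPM in KO_PBS, without overlap (log2FC -0.40 ± 0.10 SE, edgeR adjusted P = 0.0153). Tpm1, tropomyosin 1, kept its call in every fit and was measured at 16600, 19700, 14400 and 15400 CPM in WT_PBS and at 10200, 12500, 10700 and 9940 CPM in KO_PBS (log2FC -0.61 ± 0.15 SE, edgeR adjusted P = 0.0138). Mylk2, the kinase of the fast myosin light chain, fell by 0.92 ± 0.21 SE on the log2 scale (edgeR adjusted P = 0.00892), from between 1130 and 1560 CPM to between 555 and 916 CPM. Smpx, a small protein of the fibre's periphery, rose from between 251 and 320 CPM to between 433 and 536 CPM (log2FC 0.75 ± 0.10 SE, edgeR adjusted P = 0.000232).

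Glycogen breakdown and glycolysis are the fuel route of fast fibres. Of 20 genes, 9 were called lower and 1 higher, with 7 and 1 called in every fit, and the median log2FC was -0.42. Their summed level was 51000 to 61100 CPM in the WT_PBS mice and 35800 to 42400 CPM in the KO_PBS mice. Pygm (chromosome 19, 6384399 to 6398459), the muscle glycogen phosphorylase, was measured at 8050, 10100, 8510 and 9050 CPM in WT_PBS and at 4190, 5450, 5940 and 5820 CPM in KO_PBS (log2FC -0.74 ± 0.15 SE, edgeR adjusted P = 0.00365). Phkg1, the catalytic subunit of the phosphorylase kinase that activates it, was measured at 601 to 696 CPM and at 322 to 440 CPM (log2FC -0.67 ± 0.12 SE, edgeR adjusted P = 0.00175). Pfkm, muscle phosphofructokinase, was measured at 6500, 7010, 7220 and 7120 CPM in WT_PBS and at 4360, 4660, 4870 and 4690 CPM in KO_PBS (log2FC -0.58 ± 0.11 SE, edgeR adjusted P = 0.0021). The enolase gene Eno3 (log2FC -0.49 ± 0.11 SE), the pyruvate kinase gene Pkm (-0.60 ± 0.12 SE) and the lactate dehydrogenase gene Ldha (-0.60 ± 0.10 SE) were lower as well. None overlapped between the groups, which was a condition for naming Eno3 and Pkm. The exception was Hk1, the hexokinase found in most tissues, which rose from between 12.4 and 16.2 CPM to between 15.6 and 24.2 CPM (log2FC 0.61 ± 0.13 SE, edgeR adjusted P = 0.00745), with KO_PBS mouse 4 inside the wild-type range.

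Mitochondrial genes gave few calls. Of 36 complex I genes 1 was called lower (Ndufb4, log2FC -0.30 ± 0.10 SE), and of 14 genes of complexes II and III 1 was called lower (Sdha, log2FC -0.25 ± 0.08 SE). Ndufb4 kept its call in 1 of the 8 fits that left out a mouse, the fit without KO_PBS mouse 2, and Sdha in none. Complex IV, the ATP synthase, the mitochondrially encoded genes, fatty acid oxidation and the mitochondrial ribosome gave 0 edgeR calls in 11, 15, 7, 19 and 40 genes. Only 7 of the 13 mitochondrially encoded genes were tested. All 7 had a negative log2FC, with a median of -0.19, or -0.04 with scaling by library totals alone. In the citric acid cycle all 13 genes had a negative log2FC (median -0.15), of which 3 were called lower in the full fit and none in every fit, and with scaling by library totals alone 0 were called and the median was -0.00. Mitochondrially encoded transcripts took up 8.57% to 12.1% of the counts with overlap between the groups. Cholesterol synthesis gave 1 higher and 1 lower call in 17 genes, and the higher one, which alone held in every fit, was Mvd, mevalonate diphosphate decarboxylase (log2FC 0.98 ± 0.17 SE, edgeR adjusted P = 0.00137).

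Polyamines are small cations made from ornithine. Of 12 genes of their metabolism, 3 were called lower, each in every fit, and none higher. Smox (chromosome 2, 131491496 to 131525922), spermine oxidase, was measured at 421, 708, 400 and 647 CPM in WT_PBS and at 41, 88.4, 96.5 and 118 CPM in KO_PBS (log2FC -2.66 ± 0.44 SE, edgeR adjusted P = 0.00153). Amd1 (chromosome 10, 40287458 to 40302186), the adenosylmethionine decarboxylase that supplies spermidine and spermine synthesis, was measured at 77.7, 141, 67.4 and 118 CPM in WT_PBS and at 7.91, 19.7, 14.1 and 15.8 CPM in KO_PBS (log2FC -2.81 ± 0.38 SE, edgeR adjusted P = 0.000289). For both genes WT_PBS mice 2 and 4 were above mice 1 and 3, and every knockout value was below every wild-type value. Azin2, an antizyme inhibitor, was lower on a much smaller base, at 1.49 to 1.84 CPM against 0.780 to 1.11 CPM (log2FC -0.77 ± 0.19 SE, edgeR adjusted P = 0.0132). The other 9 genes were not called, and the median log2FC of all 12 was -0.08 and changed sign, to 0.07, with scaling by library totals alone.

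Clock genes gave 2 lower calls, 1 of them in every fit, and none higher in 15 genes, with a median log2FC of -0.56. Leaving out 1 mouse gave 1 to 7 calls. Hlf, a transcription factor whose level follows the time of day, was measured at 8.57, 23.3, 14.9 and 18.9 CPM in WT_PBS and at 2.18, 6.20, 3.95 and 4.49 CPM in KO_PBS (log2FC -1.96 ± 0.42 SE, edgeR adjusted P = 0.00741). The times at which muscles were taken were not given in the sources used here, and their part in these values was not tested.

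The other leading lower genes belonged to different processes. Pla2g7, the platelet-activating factor acetylhydrolase, was measured at 32.6 to 50.7 CPM in WT_PBS and 9.13 to 21.4 CPM in KO_PBS (log2FC -1.6 ± 0.23 SE, edgeR adjusted P = 0.000313). Tiam1, an activator of the GTPase Rac, was measured at 4.62 to 8.12 CPM and 1.74 to 2.55 CPM (log2FC -1.56 ± 0.24 SE, edgeR adjusted P = 0.000493). Cacng7, a calcium channel gamma subunit family member (log2FC -1.11 ± 0.16 SE), Mettl11b, an N-terminal methyltransferase (-1.22 ± 0.19 SE), and Edn3, the vasoactive peptide endothelin 3 (-2.19 ± 0.33 SE), were also lower in every fit. The widest fold among them was that of 1700001O22Rik, at 3.24 to 5.77 CPM in WT_PBS and 0.165 to 0.317 CPM in KO_PBS (log2FC -4.18 ± 0.52 SE, edgeR adjusted P = 9.88e-05).

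Protein turnover and stress genes moved unevenly. Of 38 lysosome genes, 12 were called higher and 3 lower, with 7 higher and 0 lower in every fit. Their summed level overlapped between the groups, at 3460 to 3630 CPM in WT_PBS and 3260 to 4210 CPM in KO_PBS. Macrophage markers, given below, rose in the same mice, and their part in these calls was not tested. Hexa, the alpha subunit of hexosaminidase, was measured at 37.5, 39.1, 42.8 and 36.8 CPM in WT_PBS and at 75.7, 71.4, 66.4 and 76.9 CPM in KO_PBS (log2FC 0.89 ± 0.08 SE, edgeR adjusted P = 7.49e-06). Gusb, beta-glucuronidase (log2FC 0.66 ± 0.12 SE), and Atp6v1a, a subunit of the proton pump that acidifies lysosomes (0.59 ± 0.11 SE), were higher without overlap between groups. The CLEAR-type letters TCACGTGA, searched on both strands, were in 6 of 35 promoter windows of lysosome genes (17.1%, in Atp6v0d1, Atp6v1a, Ctsa, Ctsd, Gla and Mcoln1), against 0.974% of all windows. Of 19 autophagy genes, 4 were called higher, 2 of them in every fit (2 calls in all without WT_PBS mouse 2 or KO_PBS mouse 1), and Map1lc3a, an LC3 protein of the autophagosome, rose from between 125 and 157 CPM to between 190 and 233 CPM (log2FC 0.59 ± 0.10 SE, edgeR adjusted P = 0.00137).

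Of 31 proteasome genes, 27 had a positive log2FC but the median was 0.10 and 2 were called, 1 of them in every fit, among them Psmd11 (log2FC 0.37 ± 0.08 SE). With scaling by library totals alone 17 were called and the median was 0.25. Trim63, the atrophy ubiquitin ligase MuRF1, was the sole call in 13 such ligases (log2FC 0.68 ± 0.18 SE, edgeR adjusted P = 0.0195) and lost it without KO_PBS mouse 2 or WT_PBS mouse 4. Chaperones of the endoplasmic reticulum gave 8 higher and 1 lower calls in 16 genes, none of them in every fit, and Pdia4, a disulfide isomerase, lost its call (log2FC 0.54 ± 0.13 SE, edgeR adjusted P = 0.0139) without KO_PBS mouse 1. In the integrated stress response, 2 of 18 genes were higher and 1 lower, each in every fit: the mitochondrial folate enzyme gene Mthfd2 (log2FC 1.14 ± 0.11 SE) and the serine synthesis gene Psat1 (2.13 ± 0.32 SE) were higher, and Psph, the last enzyme of serine synthesis, was lower (-0.42 ± 0.09 SE). The cytosolic ribosome gave 2 higher and 1 lower calls in 45 genes, of which 1 held in every fit, and counts of its genes are uncertain because of their near-identical pseudogenes. Of 15 antioxidant genes 4 were higher. These included Srxn1, which repairs oxidised peroxiredoxins, at 27.4 to 31.4 CPM in WT_PBS and 56.2 to 70.5 CPM in KO_PBS (log2FC 1.18 ± 0.14 SE, edgeR adjusted P = 7.08e-05), and Gpx1, glutathione peroxidase (log2FC 0.95 ± 0.19 SE, edgeR adjusted P = 0.00456).

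Metallothioneins are small proteins that bind zinc and copper. Of 12 metallothionein and zinc transport genes 5 were called higher and none lower, 4 of them in every fit. Mt3 was measured at 0.965, 1.71, 1.32 and 1.08 CPM in WT_PBS and at 22.4, 22, 23.8 and 27.3 CPM in KO_PBS (log2FC 4.24 ± 0.43 SE, edgeR adjusted P = 2.22e-05). Mt2 was measured at 6.23, 5.51, 5.06 and 8.45 CPM and at 53.5, 47.3, 29.1 and 68.8 CPM (log2FC 2.97 ± 0.44 SE, edgeR adjusted P = 0.000724). Mt1 was measured at 12, 8.12, 13.0 and 12.4 CPM and at 39.4, 42.0, 28.5 and 47.0 CPM (log2FC 1.78 ± 0.33 SE, edgeR adjusted P = 0.00283). For Mt1 and Mt2, KO_PBS mouse 4 was the highest and mouse 3 the lowest of the knockout mice, and no group overlapped the other.
The promoter windows of Mt1 (chr8:94178839-94179138) and Mt2 (chr8:94172368-94172667), both on the plus strand (RefSeq, GRCm38.p6), are shown for a form of the metal response element. Capitals mark this form, the letters TGCGCNC on either strand, so that GTGCGCA is a match on the minus strand. Other forms of the element were not searched or marked.
Mt1: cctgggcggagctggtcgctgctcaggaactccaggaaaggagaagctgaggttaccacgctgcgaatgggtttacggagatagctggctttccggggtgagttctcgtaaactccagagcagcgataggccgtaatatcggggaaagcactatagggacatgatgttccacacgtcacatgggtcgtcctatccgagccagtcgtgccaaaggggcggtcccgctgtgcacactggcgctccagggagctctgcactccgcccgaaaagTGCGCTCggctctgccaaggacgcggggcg
Mt2: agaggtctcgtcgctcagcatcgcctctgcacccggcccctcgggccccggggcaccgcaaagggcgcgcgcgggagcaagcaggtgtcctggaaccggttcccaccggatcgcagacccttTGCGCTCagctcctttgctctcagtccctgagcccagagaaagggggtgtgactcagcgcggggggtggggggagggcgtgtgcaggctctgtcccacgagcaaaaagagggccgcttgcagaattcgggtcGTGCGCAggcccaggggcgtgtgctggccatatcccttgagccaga
The Mt1 window held 1 match to these letters and the Mt2 window 2. A match was found in 5 of the list's 12 windows (41.7%, in Mt1, Mt2, Slc30a1, Slc30a2 and Slc30a4) and in 15.4% of all windows.

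Among signalling genes, p53 targets gave 3 higher and 1 lower calls in 17 genes, all in every fit. Eda2r, the receptor of the TNF family ligand ectodysplasin A2, was measured at 11.3, 14.4, 10.3 and 10.4 CPM in WT_PBS and at 96.0, 68.3, 54.5 and 110 CPM in KO_PBS (log2FC 2.83 ± 0.37 SE, edgeR adjusted P = 0.000189). Cdkn1a, the cell cycle inhibitor p21, was measured at 35.7, 15.1, 12.7 and 9.03 CPM and at 88.7, 82.0, 83.5 and 74.1 CPM (log2FC 2.18 ± 0.35 SE, edgeR adjusted P = 0.00127), with WT_PBS mouse 1 above the other wild-type mice. Of 15 NF-kappaB and cytokine genes 4 were higher in every fit and none lower. Nfkb2, the p100 subunit of that factor, rose from between 11.3 and 15.0 CPM to between 30.7 and 41.1 CPM (log2FC 1.5 ± 0.14 SE, edgeR adjusted P = 1.14e-05). The receptors Tnfrsf23, a decoy for the death ligand TRAIL, and Tnfrsf12a, which binds TWEAK, rose too, the first from between 3.23 and 4.39 CPM to between 14.9 and 17.3 CPM (log2FC 2.01 ± 0.13 SE) and the other from between 12.4 and 23.4 CPM to between 58.2 and 76.7 CPM (log2FC 1.90 ± 0.39 SE). Of 21 genes of the myostatin, activin and TGF-beta system 6 were higher and none lower, among them the activin antagonists Fst (log2FC 1.44 ± 0.27 SE) and Fstl3 (1.54 ± 0.24 SE) and the ligand Tgfb1 (1.07 ± 0.22 SE).

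Of 24 cell cycle genes 8 were called higher and 1 lower, with a median log2FC of 1.04, but only Kif11, a mitotic spindle motor, was called in every fit (log2FC 1.49 ± 0.26 SE, edgeR adjusted P = 0.00145). The list's summed level was 50.7 to 60.4 CPM in WT_PBS and 66.6 to 99.9 CPM in KO_PBS. Of 16 immediate early genes 3 were higher, 1 of them in every fit, and Atf3, a stress-induced factor, rose in every fit from between 4.77 and 13.7 CPM to between 20.2 and 34.8 CPM (log2FC 1.6 ± 0.35 SE, edgeR adjusted P = 0.00745). Hippo targets gave 3 higher calls in 13 genes and the Notch pathway 2 lower calls in 10 genes, none of the 5 in every fit. Ccn2, a matrix-associated Hippo target, had log2FC 1.42 ± 0.38 SE (edgeR adjusted P = 0.0249) and Heyl, a Notch target, -0.63 ± 0.17 SE (edgeR adjusted P = 0.0211). The developmental factor Sox11 was covered by 1 to 3 counts per wild-type saline mouse and by 65 to 108 per knockout mouse, a ratio of 38.5 (95% exact interval 19.3 to 89.8, counting error only; edgeR adjusted P = 1.03e-07).

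Matrix genes were higher in part, with KO_PBS mouse 1 often the highest. Of 16 matricellular proteins and glycoproteins 5 were higher in every fit and none was called lower. Cilp (chromosome 9, 65265180 to 65280605), a matrix protein first described in cartilage, was measured at 22.6, 9.91, 23.4 and 22.2 CPM in WT_PBS and at 417, 266, 226 and 421 CPM in KO_PBS (log2FC 4.08 ± 0.48 SE, edgeR adjusted P = 0.000111). Vcan, the proteoglycan versican (log2FC 1.72 ± 0.33 SE), and Thbs1, thrombospondin 1 (1.54 ± 0.32 SE), were higher in all knockout mice than in any wild-type mouse. Among 24 proteases, inhibitors and crosslinkers 4 were higher, including Timp1, an inhibitor of matrix metalloproteinases, at 0.782 to 2.36 CPM in WT_PBS and 43.4, 17.4, 13.8 and 15.1 CPM in KO_PBS (log2FC 3.59 ± 0.46 SE, edgeR adjusted P = 0.000173). Collagen crosslinking enzyme genes Lox (log2FC 2.02 ± 0.41 SE, edgeR adjusted P = 0.005) and Loxl1 (1.46 ± 0.25 SE, edgeR adjusted P = 0.00127) were called too. Of 18 collagen genes, 16 had a positive log2FC (median 0.59), but Col8a1 alone was called, at 2.57 to 6.39 CPM in WT_PBS and 16.1 to 70.5 CPM in KO_PBS (log2FC 2.85 ± 0.59 SE, edgeR adjusted P = 0.00686). Under the alternatives up to 9 collagen genes were called. Of 9 small leucine-rich proteoglycans 2 were higher, 1 of them in every fit, and Bgn, biglycan, was measured at 53 to 69.9 CPM in WT_PBS and at 249, 123, 139 and 135 CPM in KO_PBS (log2FC 1.35 ± 0.29 SE, edgeR adjusted P = 0.00808).

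Marker lists of the other cell types of muscle were summed in each mouse. In bulk RNA fewer cells of a type and less RNA per cell cannot be told apart. The mature myofibre list gave 1 higher and 1 lower call in 12 genes, with a summed level of 90000 to 108000 CPM in WT_PBS and 80300 to 89600 CPM in KO_PBS. Macrophage and monocyte markers had a positive log2FC in 18 of 18 genes (median 1.72), of which 15 were called higher, 12 without KO_PBS mouse 1 and 6 in every fit. Their summed level was 74.9 to 119 CPM in WT_PBS and 156 to 390 CPM in KO_PBS. Cd68, a lysosomal protein of macrophages, was measured at 2.19, 1.86, 1.87 and 1.91 CPM in WT_PBS and at 25.6, 17.9, 17.6 and 22.2 CPM in KO_PBS (log2FC 3.41 ± 0.31 SE, edgeR adjusted P = 7.49e-06). Csf1r, the receptor for the macrophage growth factor, was measured at 4.49 to 8.42 CPM and 12.7 to 31.9 CPM (log2FC 1.67 ± 0.33 SE, edgeR adjusted P = 0.00448), and the scavenger receptor gene Cd163 at 2.75 to 5.74 CPM and 8.07 to 17.4 CPM (log2FC 1.51 ± 0.29 SE, edgeR adjusted P = 0.00355). Cd68 was highest in KO_PBS mouse 1, while Csf1r and Cd163 were highest in mouse 4.

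**Figure D4:**
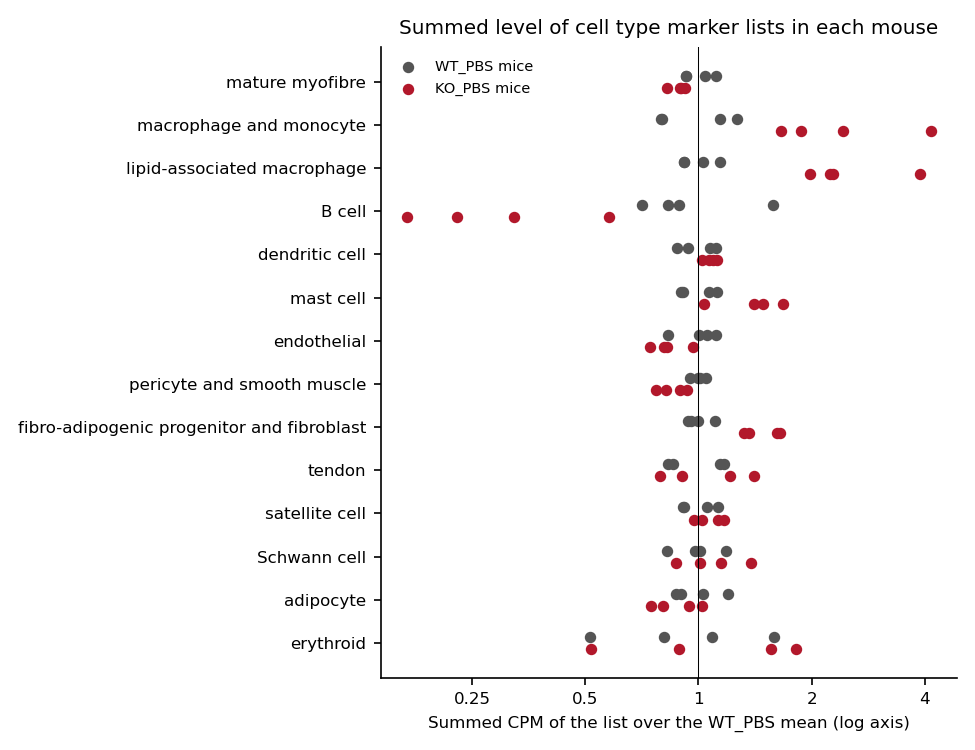
For each marker list, points give the summed CPM in each WT_PBS mouse (grey) and KO_PBS mouse (red), divided by the WT_PBS mean, on a log axis with lists under 5 CPM left out. All KO_PBS mice lie above all WT_PBS mice for the macrophage and monocyte list (156 to 390 against 74.9 to 119 CPM) and below them for the B cell list (13.2 to 45.5 against 55.6 to 124 CPM), whose sum is almost wholly Ighm, a gene that edgeR did not call. The lipid-associated macrophage and fibroblast lists also lie wholly above, and the mature myofibre and pericyte lists wholly below.

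Genes of lipid-associated macrophages, which clear debris, gave 5 higher calls in 10 genes and none lower, with 3 called in every fit and 3 calls without KO_PBS mouse 4 or any 1 WT_PBS mouse. Gpnmb, a glycoprotein of phagocytes, was measured at 2.31, 1.56, 3.92 and 1.88 CPM in WT_PBS and at 26.1, 35.7, 38.3 and 44.1 CPM in KO_PBS (log2FC 3.88 ± 0.39 SE, edgeR adjusted P = 1.83e-05). Lgals3, galectin 3, rose from between 3.01 and 4.15 CPM to between 22.5 and 46.2 CPM (log2FC 3.07 ± 0.32 SE, edgeR adjusted P = 2.5e-05). Complement gave 9 higher calls in 15 genes, 4 in every fit, with all 15 log2FC positive. The C1q chains, made by macrophages, were measured at 4.04 to 6.56 CPM in WT_PBS and 9.38 to 24.9 CPM in KO_PBS for C1qa, 4.24 to 6.49 and 9.66 to 35.5 CPM for C1qb, and 2.59 to 4.36 and 8.10 to 21.0 CPM for C1qc, with log2FC of 1.68 ± 0.35, 1.82 ± 0.38 and 1.94 ± 0.37 (SE). Of 17 chemokine and receptor genes 4 were called higher, 2 of them in every fit, and 2 were called without KO_PBS mouse 1 or 4 or WT_PBS mouse 2, 3 or 4. Cx3cl1, a membrane-bound chemokine, rose from between 1.49 and 2.75 CPM to between 4.87 and 9.15 CPM (log2FC 1.71 ± 0.35 SE, edgeR adjusted P = 0.00468), and Cxcl10 was covered by 2 to 4 counts per wild-type mouse and by 13 to 86 per knockout mouse, a ratio of 10.5 (95% exact interval 6.06 to 19.6, counting error only).

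MHC class II genes all had a positive log2FC (7 of 7, median 0.73), but 0 were called by edgeR, against 2 with scaling by library totals alone and at most 4 under any alternative. Cd74, their invariant chain, was measured at 25.3 to 49.4 CPM in WT_PBS and 51.5 to 80.4 CPM in KO_PBS (log2FC 0.84 ± 0.29 SE, edgeR adjusted P = 0.0712) and was called by DESeq2, by limma-voom, and by edgeR with the compared groups alone or with library totals. MHC class I gave 0 edgeR calls in 9 genes. The interferon response gave 1 in 20, Ifi27l2a, at 3.83, 4.25, 4.71 and 16.4 CPM in KO_PBS against 2.15 to 3.5 CPM in WT_PBS (log2FC 1.39 ± 0.41 SE, edgeR adjusted P = 0.0376). That call was lost without KO_PBS mouse 4, and also without any of the 4 WT_PBS mice. T and NK cell genes were barely detected, with 4 of 18 passing the filter, and neutrophil genes with 2 of 10. Zap70, a kinase of the T cell receptor pathway, was the sole T and NK cell call and held in every fit, at 0 to 0.234 CPM in WT_PBS and 0.439 to 1.65 CPM in KO_PBS (log2FC 2.96 ± 0.66 SE, edgeR adjusted P = 0.00821). S100a9, a neutrophil protein, was at 3.33 CPM in KO_PBS mouse 4 and at 0.0251 to 0.34 CPM in the other 7 saline mice. B cell genes passed the filter in 2 of 8, and Ighm, the IgM heavy chain, was measured at 123, 68.4, 54.8 and 64.7 CPM in WT_PBS and at 16.8, 44.9, 23.9 and 12.4 CPM in KO_PBS. These values did not overlap, yet Ighm was not called (log2FC -1.67 ± 0.53 SE, edgeR adjusted P = 0.0561), while DESeq2, limma-voom and edgeR with the compared groups alone, with the replicate block or without KO_PBS mouse 2 called it.

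Fibroblast and fibro-adipogenic progenitor markers had a positive log2FC in 11 of 11 genes (median 0.65), with 5 called higher and 3 in every fit, and summed levels of 565 to 669 CPM in WT_PBS and 798 to 992 CPM in KO_PBS. Mfap5, a microfibril protein, was measured at 9.18 to 10.6 CPM in WT_PBS and at 53.3, 26.4, 27.5 and 27.3 CPM in KO_PBS (log2FC 1.81 ± 0.34 SE, edgeR adjusted P = 0.00324). Pi16, a marker of adventitial fibroblasts, was measured at 12.2 to 22.6 CPM and 25.9 to 47.2 CPM (log2FC 1.24 ± 0.28 SE, edgeR adjusted P = 0.0102). Endothelial markers had a negative log2FC in 14 of 14 genes, but the median was -0.23, or -0.09 with scaling by library totals alone, and the sole call was Flt1, a VEGF receptor, at 107 to 152 CPM in WT_PBS and 82.8 to 98.5 CPM in KO_PBS (log2FC -0.54 ± 0.12 SE, edgeR adjusted P = 0.00611). Adipocyte and erythroid lists gave 0 edgeR calls in 10 and 5 genes. The adipocyte list's median log2FC was 1.02 while its summed level was 609 to 836 CPM in WT_PBS and 523 to 712 CPM in KO_PBS, so that median and sum differ in sign.

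Satellite cells, the stem cells of muscle, had the largest share of lower calls. Of 8 markers 4 were lower and 1 higher, with 3 lower in every fit. Pax7, the transcription factor that defines these cells, was measured at 3.80, 5.36, 4.07 and 3.69 CPM in WT_PBS and at 1.41, 1.33, 2.39 and 1.28 CPM in KO_PBS (log2FC -1.39 ± 0.22 SE, edgeR adjusted P = 0.000654). Fgfr4, a receptor for fibroblast growth factors, was measured at 3.57, 5.18, 3.79 and 4.04 CPM and at 1.49, 1.53, 2.02 and 1.28 CPM (log2FC -1.38 ± 0.21 SE, edgeR adjusted P = 0.000564). Calcr, the calcitonin receptor of quiescent satellite cells, was measured at 0.519 to 0.928 CPM and 0.074 to 0.146 CPM (log2FC -2.43 ± 0.55 SE, edgeR adjusted P = 0.00835). All 3 genes were lower in every knockout mouse than in any wild-type mouse, though Pax7 and Fgfr4 also met a naming rule that required this. The summed level of the 8 markers nevertheless overlapped, at 50.8 to 63.3 CPM in WT_PBS and 54.6 to 65.5 CPM in KO_PBS.

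Smaller lists are given by their counts, against 12.6% called over all genes. Muscle transcription factors gave 1 higher and 2 lower calls in 16 genes (18.8%), with Tead4, a factor of myogenic cells, higher in every fit (log2FC 1.6 ± 0.31 SE, edgeR adjusted P = 0.00365). Myogenic and fusion genes gave 1 higher (Myog) and 2 lower calls in 10 genes (30.0%), muscle RNA-binding proteins 1 lower in 11 (9.09%), ESCRT genes 1 higher and 2 lower in 13 (23.1%), and the IGF system 1 higher in 11 (9.09%). Rbm20, the splicing factor of titin, was the RNA-binding call (log2FC -0.63 ± 0.16 SE, edgeR adjusted P = 0.0201), lost without KO_PBS mouse 1 or WT_PBS mouse 2 or 4. Pericyte and smooth muscle markers gave 1 higher and 2 lower calls in 9 genes (33.3%), tendon markers 1 and 1 in 5 (40.0%), mast cell markers 1 higher in 6 (16.7%), and dendritic cell markers 0 in 2 by edgeR. None of the pericyte, mast cell and IGF calls held in every fit. The pericyte list fell to 0 calls without WT_PBS mouse 1 or 4 or KO_PBS mouse 1, the IGF system to 0 without any of these or KO_PBS mouse 4, and the mast cell list to 0 without any 1 mouse but WT_PBS mouse 1 or KO_PBS mouse 2. ESCRT genes fell to 1 call without KO_PBS mouse 1, and muscle transcription factors to 1 without that mouse or WT_PBS mouse 2. Scx, the transcription factor of tendon cells, was the higher tendon call, at 0.782 to 1.75 CPM in WT_PBS and 4.46 to 8.99 CPM in KO_PBS (log2FC 2.24 ± 0.32 SE, edgeR adjusted P = 0.000299). Chodl was the lower tendon call, at 9.24 to 14.1 CPM and 3.8 to 5.43 CPM (log2FC -1.42 ± 0.33 SE, edgeR adjusted P = 0.0115), and the list's median log2FC was -0.06.

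The same genotype contrast in the 8 mice given ASO1, which share no sample with the saline mice, gave 11 calls (0.0735%), with 2262 genes (15.1%) at an unadjusted P under 0.05. Of the 582 genes higher in every saline fit, 479 (82.3%) had a positive log2FC in the ASO1 mice as well, with a median of 0.29 against 1.17 in saline. Of the 286 lower genes, 262 (91.6%) had a negative log2FC there, with a median of -0.20 against -0.54. The saline values chose these genes, which favours a smaller median in the ASO1 mice. Over all genes tested, the sign was shared by 65.0% of those above 0 in saline and 63.1% of those below. The difference between the effects, tested as an interaction, was called for 86 genes (0.575%), including 75 of the 1112 higher and 6 of the 766 lower DEGs. Genes with a called interaction included Gpnmb, with log2FC 3.88 ± 0.39 SE in saline and 0.32 in ASO1 mice (interaction adjusted P = 0.00701, edgeR), and Des, with 0.75 ± 0.10 SE and 0.01 (interaction adjusted P = 0.0234, edgeR). For other genes the interaction was not called: Fhl1 had log2FC 1.25 ± 0.27 SE in saline and 1.07 in ASO1 mice, Pfkm -0.58 ± 0.11 SE and -0.44, and Pygm -0.74 ± 0.15 SE and -0.52. Bin1 itself had log2FC -3.92 ± 0.12 SE in the ASO1 mice.

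**Figure D5:**
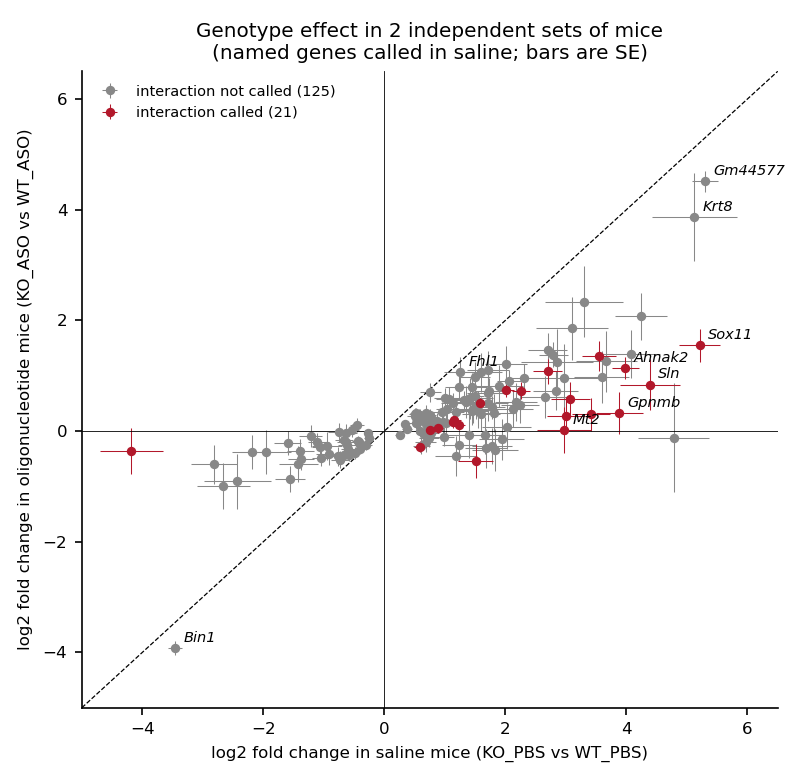
Log2 fold change of the 146 named genes called in saline mice (horizontal axis, KO_PBS over WT_PBS) and in ASO1 mice (vertical axis, KO_ASO over WT_ASO), with SE as bars and the dashed line marking equal effects. The 21 genes in red had an interaction adjusted P under 0.05 and lie between the dashed line and 0 on the vertical axis or beyond it, while Bin1 and Gm44577 stay near the dashed line.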

How the data were processed

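The deposited table holds raw read counts per gene, made by the authors. Per the labels, poly(A) libraries were made with a stranded kit, and reads were handled, by the submitters' notes, with STAR 2.5.3a, HTSeq 0.6.1p1, Bowtie2 2.2.8 and cutadapt 1.10 on the mouse build GRCm38 (mm10); their settings, including the strand setting of the counting, were not given in the sources used here. Groups were taken from the labels, and all 29730 identifiers were named from the GENCODE annotation of that build.

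Counts were scaled by TMM in edgeR 4.0.16 (R 4.3.3), genes with low counts were removed by group (14770 removed), and all 16 libraries entered 1 quasi-likelihood fit with a mean for each group (biological coefficient of variation 18.7%). Genes were called at a Benjamini-Hochberg adjusted P under 0.05 over all 14960 genes tested. SEs were derived from the log2FC and its F statistic. Alternatives were DESeq2 1.42.0, limma 3.58.1 (voom with quality weights), DESeq2 size factors, library totals alone, no filter, the compared groups alone, a replicate block, and leaving out each library. The edgeR P-values of the full fit weigh a difference between groups against a spread estimated over all 16 libraries. Exact intervals cover counting error only.

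The contrast, the 78 lists and the named genes were chosen with earlier results of these data known. Named genes were Bin1 and Dnm2, the 12 higher and 12 lower at least 2-fold with the smallest P and the 6 and 6 with the largest difference in CPM among calls that held in every fit leaving out 1 saline library, without overlap between the groups, and up to 3 genes per direction and list (where a list had none, its called gene with the smallest P, or else its most abundant gene). For genes named by smallest P or by largest difference in CPM, absence of overlap was a condition and not a finding. CPM is not corrected for gene length.

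Of the genes named, Bin1, Dnm2, Tmbim1, Des, Cryab, Hspb6, Pfkm, Tnnt3, Myl4, Mtmr3, Phkg1, Hexa, Psph, Mt2, Nfkb2, Cxcl10, Csf1r, Scx, Cox4i1 and Acadvl overlap an expressed gene on the other strand, and Pkm, Xirp1 and Phkg1 one on the same strand, so that reads of the pairs may not be told apart.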

Additional observations from a re-analysis of the deposited data

Results flagged for a closer look

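Within a group of 4 mice, 30 of the 320 group values tested for the named genes held 1 mouse far from the other 3 (Dixon's test at 95%, which chance passes in about 1 in 20 groups). KO_PBS mouse 1 stood above the other 3 of its group with Serpinb1a at 74.2 CPM, Tubb6 at 82.9 CPM, Smpx at 536 CPM, Kcnn3 at 28.5 CPM, Sgcd at 11.1 CPM, Psat1 at 6.81 CPM, Kif11 at 6.98 CPM, Bgn at 249 CPM, Timp1 at 43.4 CPM, Mfap5 at 53.3 CPM and Chodl at 5.43 CPM. KO_PBS mouse 3 stood above the other 3 of its group with Pax7 at 2.39 CPM and Syne2 at 27.5 CPM. KO_PBS mouse 4 stood above the other 3 of its group with Psmd11 at 106 CPM, Ifi27l2a at 16.4 CPM, Lgals3 at 46.2 CPM and S100a9 at 3.33 CPM. KO_PBS mouse 4 stood below the other 3 of its group with Lmna at 119 CPM, Cox4i1 at 695 CPM, Acadvl at 486 CPM and Calcr at 0.074 CPM. WT_PBS mouse 1 stood above the other 3 of its group with Cd68 at 2.19 CPM, Mfap5 at 10.6 CPM and Pi16 at 22.6 CPM. WT_PBS mouse 2 stood below the other 3 of its group with Gusb at 12.6 CPM and Cilp at 9.91 CPM. WT_PBS mouse 3 stood above the other 3 of its group with Hspb6 at 1360 CPM and Ndufb4 at 19.7 CPM. WT_PBS mouse 4 stood below the other 3 of its group with Mylk2 at 1130 CPM and Cav3 at 48.6 CPM.

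The genotype effect differed between ASO1 and saline mice for 21 named genes by the interaction test (edgeR, adjusted P under 0.05), given here as the log2FC in ASO1 mice minus that in saline mice. The difference was -2.85 for Ahnak2, -3.66 for Sox11, -2.20 for Serpinb1a, -3.11 for Cd68, -3.55 for Sln, -2.72 for Anxa8, -2.96 for Mt2, -2.05 for Cd163, -3.56 for Gpnmb and -2.49 for Lgals3. It was -1.08 for Anxa4, -1.52 for Ncam1, -1.26 for Tnfrsf23, -1.13 for Tmbim1, -1.63 for Cpne2, -0.95 for 1810058I24Rik, -0.74 for Des, -0.85 for Hexa, -0.88 for Map1lc3a and -0.96 for Mthfd2. For 1700001O22Rik, the only 1 of the 21 lower in the saline knockout mice, it was 3.82. These genes were named for their calls in the saline mice, a choice that favours a smaller effect in the ASO1 mice. Of the 20 higher in the saline knockout mice, Map1lc3a and Cd163 had a log2FC below 0 in ASO1 mice.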

How the results depend on the processing

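The genotype effect in saline mice kept its direction for each of the 146 named genes called, under every alternative run, though most were named for holding their call with any 1 mouse left out. Leaving out 1 mouse left 997 (without KO_PBS mouse 1; 1080 without WT_PBS mouse 4) to 1694 genes called, 667 to 1058 higher and 314 to 636 lower, and 418 to 683 at least 2-fold. Scaling by library totals alone gave 1942 higher and 260 lower calls in place of 1112 and 766, and shared 1372 of 1878 calls. With limma-voom 1268 genes were lower. In the ASO1 mice the 11 calls became 422 with DESeq2, 6 with DESeq2 size factors, 2 with the compared groups alone, 2 with limma-voom and 44 with the replicate block, and 2 to 19 without 1 mouse. The 86 interaction calls became 385 with DESeq2 and 23 to 102 without 1 mouse. The causes were not tested.

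Replicate numbers recur in all groups, but deviations of KO_PBS and WT_PBS mice with the same number correlated at 0.225, -0.0777, 0.211 and 0.20, so with 1 pair below 0.1 they were taken to share only a number. KO_PBS mice 1, 3 and 4 correlated best with the WT_PBS mouse of their own number, a hint from the data and not the design, and KO_PBS mouse 2 with WT_PBS mouse 3. With the replicate block 2322 genes were called, of which 1813 were shared with the fit without it.

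Over all alternatives the members called ranged from 0 to 8 for fast contractile genes (5 in the report), 3 to 9 for Z-disc (8), 2 to 8 for ion channels (7), 3 to 8 for the triad (4), 4 to 8 for integrins (5), 8 to 16 for the lysosome (15), 0 to 12 for reticulum chaperones (9), 4 to 11 for heat shock proteins (8), 1 to 17 for the proteasome (2), 1 to 16 for the cell cycle (9), 1 to 9 for collagens (1), 1 to 7 for the clock (2), 6 to 15 for macrophages (15), 4 to 9 for complement (9), 3 to 8 for fibroblasts (5), 3 to 5 for satellite cells (5), 12 to 15 for membrane repair (13), 9 to 11 for denervation (10), 8 to 14 for glycolysis and glycogen (10) and 3 to 6 for polyamines (3). Of the values of named genes under the alternatives, 2304 kept their side of the threshold, 84 lost and 10 gained a call. A further 1, that of Atp5b (not called) with scaling by library totals alone, fell in none of these classes. A low number of counts limits Krt8, Sox11, Cxcl10, S100a9, Gm44577, Zap70 and Calcr, each with under 10 counts in every saline library of 1 genotype.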
